A study of Mus musculus with 2 samples.

Results

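Krt8, Krt18, Krt19, Krt7, Cldn4, Sfn, Areg, Hbegf, Plaur and Sprr1a are genes that mark the transitional state of the injured alveolus and the injury response of lung epithelium. All rows with these symbols were taken from the 2 matrices of the series, which gave 10 genes of the 32285 measured. Their levels and joint detection were read in alveolar and airway epithelial cells, which were gated by the raw counts of marker genes other than these 10. The question was how strongly each gene was expressed in each epithelial cell class when Cebpa, a transcription factor of the AT2 cell, was targeted, and whether cells that hold several of the genes together were found.

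The data were 10x Genomics 3′ single-cell libraries of mouse lung, 1 from mice labelled Cebpa FF and 1 from mice labelled Cebpa KO. Cebpa FF stands for mice with both Cebpa alleles floxed (Cebpa fl/fl). Cebpa KO stands for mice with the same floxed alleles and a tamoxifen-inducible Cre recombinase driven by Sftpc, a gene of AT2 cells (Sftpc-CreERT2), so that the deletion is directed to AT2 cells and not to the other cells of the lung. Tamoxifen was injected on 5 days at 75 mg/kg and lungs were taken 26 weeks after the first dose, in mice of mixed background that were 3 months old unless otherwise given. Lungs of both genotypes were timed from tamoxifen, and the methods give a further weekly round of injections for analyses later than 3 months after the first round. The study used 3 mice per genotype, pooled, so that no cell can be traced to its mouse. With 1 library per genotype there was no replicate, so no test between genotypes was possible. Every interval given is an exact 95% interval that covers counting error only (Poisson for levels, Clopper-Pearson for shares of cells and conditional binomial for ratios).

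Transitional alveolar cells arise when AT2 cells, the cuboidal surfactant-producing cells of the alveolus, differentiate towards the flat AT1 cells that carry gas exchange. In this intermediate state surfactant genes are low, and genes of the simple epithelial cytoskeleton, of tight junctions and of the p53 response are high, with Krt8 as the gene that gave the state its name. KRT8 pairs with KRT18, and KRT7 and KRT19 are further keratins of simple epithelia. CLDN4 is a tight junction claudin, SFN is the 14-3-3 sigma protein of the p53 response, AREG and HBEGF are ligands of the EGF receptor, PLAUR is the receptor of urokinase, and SPRR1A is a cross-linked protein of the cornified envelope.

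Library depth differed between the genotypes. The library labelled Cebpa FF held 69200420 UMIs in 11721 barcodes and that labelled Cebpa KO held 64697396 UMIs in 13373 barcodes. The filter kept cells of 200 genes or more with mitochondrial UMIs of 20% or less, which numbered 11487 and 13238, with a median of 4835 and 2607 UMIs. Epithelial cells were a small part of them. AT2 cells numbered 466 in Cebpa FF and 293 in Cebpa KO, AT1 cells 116 and 38, airway secretory cells 15 and 11, and ciliated cells 204 and 155. Their median depth differed most in AT2 cells, at 21165 against 1500 UMIs, and in ciliated cells, at 16590 against 1714 UMIs. Levels are therefore given in CPM, the UMIs of a gene per 1000000 UMIs summed over the cells of a class. Shares of cells with a UMI are given after each cell was thinned to 1000 UMIs, cells with fewer being left out. Of the gate markers, Sftpc was at 189586 and 134930 CPM in AT2 cells and Ager at 17236 and 9501 in AT1 cells. Foxj1 was at 738 and 723 in ciliated cells and Scgb1a1 at 506337 and 478747 in secretory cells. As these genes helped to set the gates, their levels are no separate check of the classes. Barcode sequences shared by the libraries numbered 45. With 15 and 11 cells, 9 of the 11 among the highest doublet scores, the secretory class was too small to carry a level and is given by its ratios alone.

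The targeted gene was checked first. In AT2 cells Cebpa was at 153 CPM (145 to 161, 1451 UMIs) in the library labelled Cebpa FF and at 123 (107 to 142, 201 UMIs) in that labelled Cebpa KO. The log2 ratio was −0.31 (−0.53 to −0.09), so the gated AT2 cells of the library labelled Cebpa KO still held most of the Cebpa mRNA of the control. These counts are of the whole gene, and what part of it a floxed allele loses was not read from them. The labels are therefore used as names, and no difference below is read as the effect of Cebpa loss in the cells that were counted.

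Cells that passed none of the 20 gates but held UMIs of at least 3 of 4 general epithelial genes (Epcam, Cdh1, Cldn3 and Cldn7) were set apart as unassigned epithelial cells. This class was defined after the data were seen. It held 39 cells of the library labelled Cebpa KO, with a median of 2976 UMIs, and 1 cell of that labelled Cebpa FF, which the doublet caller marked. As most results below turn on these 39 cells, they are called unassigned cells and are given no cell type name. The genes that stood out most in them against all other cells were Sprr1a, Krt18, Areg, Krt8, Krt7, Sfn, Cldn4, Clip4, Aqp5 and Cystm1. Gate markers and the 4 general epithelial genes were left out of this ranking, as were genes found in few of the cells. None of the 10 members was used to choose the class, but 2 of the genes that were, Cldn3 and Cldn7, are claudins as Cldn4 is. The gated classes were not asked to hold the 4 general epithelial genes, so comparisons with them are unequal in this respect.

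The stretch around the start site of 6 members is shown, since Sprr1a, Cldn4 and Areg were each higher in unassigned cells than in AT2 and AT1 cells, Plaur had the widest ratio between the libraries in AT2 cells, and Krt8 and Krt18 form the keratin pair. Each runs 5′ to 3′ on the strand of the gene, from 250 bases before to 50 bases after the start that RefSeq gives on GRCm38.p6, and capitals mark the motifs found. They lie at chr3:92485832-92486131 on the minus strand for Sprr1a, chr5:134946885-134947184 on the minus strand for Cldn4, chr7:24462233-24462532 on the plus strand for Plaur, chr5:91139349-91139648 on the plus strand for Areg, chr15:102004293-102004592 on the minus strand for Krt8 and chr15:102027966-102028265 on the plus strand for Krt18.
Sprr1a: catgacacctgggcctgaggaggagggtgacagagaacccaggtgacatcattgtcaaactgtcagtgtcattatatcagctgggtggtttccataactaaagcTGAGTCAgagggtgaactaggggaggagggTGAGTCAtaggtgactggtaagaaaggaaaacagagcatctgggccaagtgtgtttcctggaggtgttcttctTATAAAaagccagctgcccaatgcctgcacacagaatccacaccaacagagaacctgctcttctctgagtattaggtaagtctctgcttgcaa
Cldn4: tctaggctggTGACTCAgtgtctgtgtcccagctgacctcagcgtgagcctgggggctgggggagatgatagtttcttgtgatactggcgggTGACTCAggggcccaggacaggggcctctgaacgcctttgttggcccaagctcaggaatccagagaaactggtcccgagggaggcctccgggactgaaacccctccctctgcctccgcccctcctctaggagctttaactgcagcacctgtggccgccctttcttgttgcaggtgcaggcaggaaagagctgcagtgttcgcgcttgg
Plaur: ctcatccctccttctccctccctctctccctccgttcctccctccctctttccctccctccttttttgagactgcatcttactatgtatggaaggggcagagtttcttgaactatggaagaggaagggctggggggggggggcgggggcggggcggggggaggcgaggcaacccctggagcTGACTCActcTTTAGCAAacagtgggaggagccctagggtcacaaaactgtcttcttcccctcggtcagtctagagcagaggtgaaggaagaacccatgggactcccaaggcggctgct
Areg: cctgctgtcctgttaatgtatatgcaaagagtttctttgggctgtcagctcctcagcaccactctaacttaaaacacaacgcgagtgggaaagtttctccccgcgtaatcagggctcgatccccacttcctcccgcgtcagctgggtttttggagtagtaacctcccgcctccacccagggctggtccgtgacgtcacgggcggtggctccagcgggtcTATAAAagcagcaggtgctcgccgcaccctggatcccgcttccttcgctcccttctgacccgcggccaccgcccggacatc
Krt8: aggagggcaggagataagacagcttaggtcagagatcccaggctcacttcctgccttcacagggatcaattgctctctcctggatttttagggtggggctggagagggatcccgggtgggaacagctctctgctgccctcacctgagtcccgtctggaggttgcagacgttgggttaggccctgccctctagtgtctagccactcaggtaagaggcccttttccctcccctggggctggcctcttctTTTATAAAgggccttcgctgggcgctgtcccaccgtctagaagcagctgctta
Krt18: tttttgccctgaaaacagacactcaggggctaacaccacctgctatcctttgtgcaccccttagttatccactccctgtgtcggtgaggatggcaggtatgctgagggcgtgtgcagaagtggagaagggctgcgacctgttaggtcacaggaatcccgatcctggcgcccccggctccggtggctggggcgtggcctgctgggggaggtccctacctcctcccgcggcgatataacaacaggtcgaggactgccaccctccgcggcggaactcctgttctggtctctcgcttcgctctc

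A search for 4 short motifs on both strands was made over the 8 members that have an entry in the promoter table (Krt19 and Hbegf have none). The AP-1 motif TGANTCA is in 7.81% of all 32851 promoters of that table, the C/EBP motif TTGCNNAA in 10.8%, the TEAD motif GGAATG in 14.7% and the TATA box TATAAA in 13.6%. In Sprr1a, the letters TGAGTCA stand 146 and 116 bases before the start and a TATA box stands 43 bases before it. Cldn4 holds TGACTCA at 240 and 158 bases before its start. Plaur holds TGACTCA at 69 and the C/EBP letters TTTAGCAA at 59 bases before its start. Areg has a TATA box 31 bases before its start, and Krt8 has overlapping TATA letters on both strands at 3 and 1 bases before it. Krt18, Krt7 and Sfn hold none of the 4 motifs in this window. A match describes letters and not binding, since the files hold no measure of factors on DNA.

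On mm10, Krt8 (chr15:101996698-102004482, minus strand) and Krt18 (chr15:102028180-102032027, plus strand) are neighbours, and Krt7 (chr15:101411043-101430313, plus strand) is on the same chromosome within the type II keratin cluster. Krt19 (chr11:100140810-100148665, minus strand) is in the type I cluster. Cldn4 (chr5:134945119-134946934, minus strand), Areg (chr5:91139599-91148432, plus strand), Sfn (chr4:133600556-133602168, minus strand), Plaur (chr7:24462484-24475968, plus strand), Sprr1a (chr3:92483952-92485895, minus strand) and Hbegf (chr18:36504927-36515805, minus strand) are apart from these. On the opposite strand, Gm36026 overlaps Krt8 and Gm671 overlaps Krt7.

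Among the keratins, Krt8 was highest in the unassigned cells and next in ciliated cells. In AT2 cells it was at 180 CPM (171 to 189) in Cebpa FF and 203 (182 to 226) in Cebpa KO. In AT1 cells it was at 527 (467 to 593) and 454 (330 to 610), and in ciliated cells at 949 (917 to 983) and 841 (783 to 903). The unassigned cells of Cebpa KO held Krt8 at 2085 (1904 to 2279), from 485 UMIs. Among these classes the order ciliated, AT1, AT2 was the same in both libraries, the unassigned cells were above all of them, and the intervals of neighbours in that order did not overlap. Endothelial cells, which should lack the gene, were at 5.15 and 7.67 (6.73 to 8.70).

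After thinning, the share of cells with a Krt8 UMI was 15.3% of 465 AT2 cells in Cebpa FF and 9.52% of 231 in Cebpa KO, against 0.538% and 0.991% of endothelial cells. Without thinning the same shares in AT2 cells were 82.6% and 28.0%, which moved with the depth of the cells. In ciliated cells 55.7% and 47.3% held Krt8 after thinning, and of the unassigned cells 25 of 38 (65.8%) did. Between the libraries, the log2 ratio of Krt8 (Cebpa KO over Cebpa FF) was 0.18 (0.00 to 0.35) in AT2 cells, −0.21 (−0.71 to 0.25) in AT1 cells and −0.17 (−0.29 to −0.06) in ciliated cells. None of these was past 2-fold.

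Krt18, the type I partner of Krt8, was at 216 (207 to 226) and 207 (186 to 230) CPM in AT2 cells of Cebpa FF and Cebpa KO. It was at 436 (382 to 496) and 392 (278 to 539) in AT1 cells and at 516 (493 to 541) and 440 (398 to 485) in ciliated cells. The unassigned cells held 2236 (2048 to 2436). The intervals of AT1 and ciliated cells overlapped in both libraries, while the unassigned cells stood above these classes. Neuroendocrine cells, too few to place, were at 1933 (1555 to 2376) in 4 cells of Cebpa FF and 790 (408 to 1381) in 6 of Cebpa KO. The former interval overlapped that of the unassigned cells. The Krt8 to Krt18 ratio of UMIs was 0.83 (0.78 to 0.89) and 0.98 (0.84 to 1.15) in AT2 cells, 1.84 (1.73 to 1.95) and 1.91 (1.70 to 2.16) in ciliated cells and 0.93 (0.82 to 1.06) in unassigned cells. By this ratio alone the unassigned cells were apart from ciliated cells and overlapped AT2 cells. In AT1 cells the ratio was 1.21 (1.01 to 1.44) and 1.16 (0.73 to 1.84), and the interval of the latter covered that of the unassigned cells. Endothelial cells of Cebpa KO, at 0.95 (0.80 to 1.14), and its secretory cells, at 0.80 (0.61 to 1.03), overlapped it too. Its fibroblasts, at 0.57 (0.40 to 0.81), and macrophages, at 2.06 (1.12 to 3.92), did not. The ratio thus does not single out AT2 cells, and 1 unassigned cell held 32.4% of the pair's UMIs in that class.

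Krt19 and Krt7 were alike in being high in AT1 cells and low in AT2 cells. Krt19 was at 38.0 (34.2 to 42.1) and 36.9 (28.1 to 47.4) CPM in AT2 cells and at 1064 (978 to 1155) and 878 (701 to 1085) in AT1 cells. The unassigned cells held Krt19 at 989 (865 to 1125), within the interval of AT1 cells. Krt7 was at 52.6 (48.1 to 57.5) and 41.8 (32.4 to 53.0) in AT2 cells and at 1510 (1407 to 1618) and 1342 (1122 to 1594) in AT1 cells. In unassigned cells Krt7 was at 1182 (1047 to 1331), and the interval overlapped that of AT1 cells of the same library. Krt7 was lower in ciliated cells, at 160 (147 to 174) and 103 (83.2 to 126).

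Mesothelial cells, the lining of the lung surface, also carried these keratins, with Krt7 at 393 and 571 and Krt19 at 1144 and 560 CPM in 16 and 20 cells. The unassigned cells held 2 UMIs of the mesothelial gene Msln, a marker of a gate that they did not pass. Thinned to 1000 UMIs, Krt7 was found in 78.9% of AT1 cells of Cebpa FF and 61.1% of those of Cebpa KO, and in 3.44% and 4.33% of AT2 cells. Of the unassigned cells 39.5% held Krt7 and 31.6% held Krt19.

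**Figure D1:**
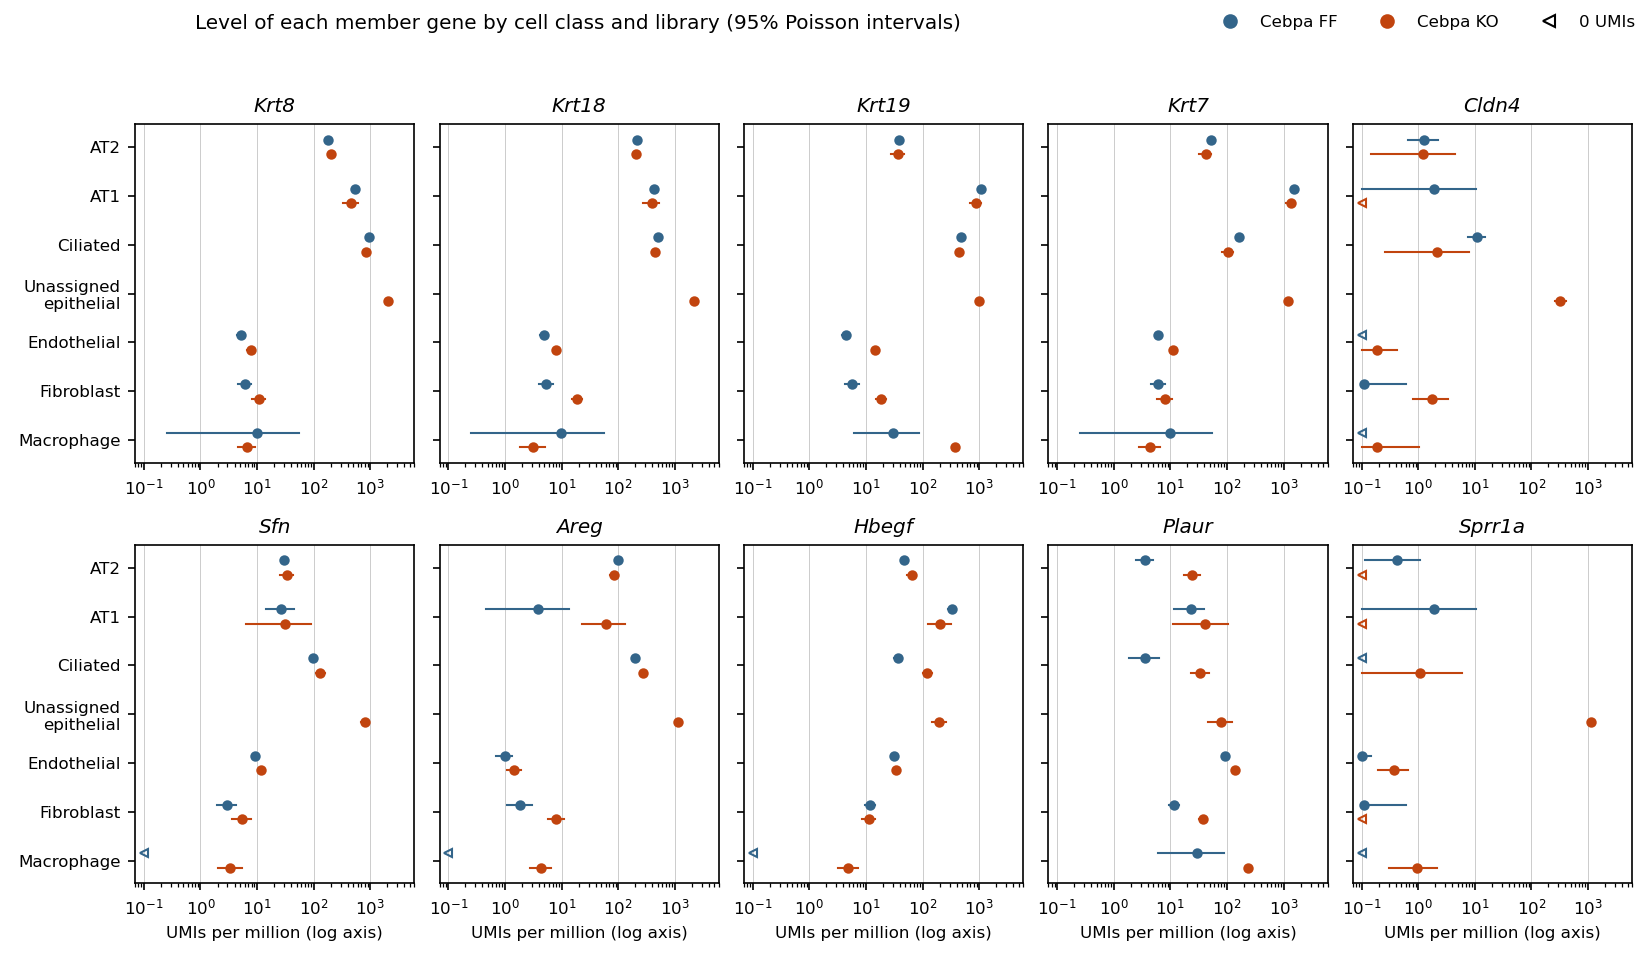
Level of each of the 10 genes in CPM (log axis) by cell class, with 1 point per library and exact 95% Poisson intervals. Open triangles mark classes with 0 UMIs. The unassigned epithelial cells of the library labelled Cebpa KO are above AT2 cells for every gene, with Krt8 at 2085 against 203 and Sprr1a at 1131 against 0.

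Of the junction and stress genes, Cldn4 was close to absent from gated alveolar cells. AT2 cells held 12 UMIs of Cldn4 in Cebpa FF (1.26 CPM) and 2 in Cebpa KO (1.23 CPM), and AT1 cells held 1 and 0. Ciliated cells held 37 and 2 UMIs, or 10.9 (7.69 to 15.1) and 2.17 (0.262 to 7.82) CPM. The unassigned cells held 76 UMIs, or 327 (257 to 409) CPM, which was 71.7% of the 106 Cldn4 UMIs of the whole library labelled Cebpa KO. Those UMIs came from 11 of the 39 cells.

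Sfn was at 30.3 (26.9 to 34.0) and 33.2 (24.9 to 43.3) CPM in AT2 cells and at 96.5 (86.3 to 108) and 132 (110 to 158) in ciliated cells. The unassigned cells held Sfn at 804 (693 to 928), from 187 UMIs. Basal cells, 2 in each library and too few to place, were at 483 (291 to 755) and 816 (607 to 1073), which overlapped that interval. Sfn was also found in B cells, at 67.7 and 56.0, so that it was not restricted to epithelium. After thinning, 13.2% of unassigned cells held Cldn4 and 23.7% held Sfn.

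The ligands of the EGF receptor differed in where they were found. Areg was at 99.2 (92.9 to 106) and 86.0 (72.4 to 101) CPM in AT2 cells and at 203 (188 to 219) and 280 (247 to 317) in ciliated cells. In AT1 cells it was at 3.78 and 62.0, from 2 and 6 UMIs, and all 6 of the latter came from 1 cell. The unassigned cells held Areg at 1161 (1026 to 1308), from 270 UMIs in 17 cells. After thinning, 31.6% of unassigned cells held Areg, against 7.31% and 3.90% of AT2 cells and 0.0707% and 0.201% of endothelial cells.

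Of the Areg UMIs in ciliated cells of Cebpa KO, 161 (62.2%) came from 1 cell. The log2 ratio of Areg in ciliated cells was 0.47 (0.25 to 0.67) over all cells and −0.71 (−1.03 to −0.40) without the cell that held most member UMIs in each library. Thinned before summing it was −1.05 (−2.12 to −0.08), and as a mean over cells −1.07. No direction was therefore read for Areg in ciliated cells.

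Among gated epithelial cells Hbegf was highest in AT1 cells, at 334 (287 to 387) CPM in Cebpa FF and 207 (126 to 319) in Cebpa KO. AT2 cells were at 47.0 (42.7 to 51.5) and 63.9 (52.2 to 77.4). Smooth muscle cells and pericytes carried it as well, at 308 (285 to 332) and 173 (150 to 198), and endothelial cells at 31.7 and 33.7. Hbegf was at 198 (145 to 264) in the unassigned cells, which was within the interval of AT1 cells of that library.

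Plaur was a gene of other cells in both libraries. It was at 3.58 CPM (34 UMIs) in AT2 cells of Cebpa FF and 24.6 (17.6 to 33.5) in those of Cebpa KO. Endothelial cells were at 92.0 (89.0 to 95.1) and 137 (133 to 141), monocytes at 350 and 405, and neutrophils of Cebpa KO at 520 (493 to 549). The 4 gated epithelial classes held 1.53% of all Plaur UMIs in Cebpa FF and 0.800% in Cebpa KO. Unassigned cells were at 77.4 (45.9 to 122), from 18 UMIs, which was below the endothelial level of the same library.

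Sprr1a, a gene better known from squamous epithelium, was found in few cells. In Cebpa FF the gene had 21 UMIs in all, of which AT2 cells held 4, all in 1 cell. In Cebpa KO it had 332 UMIs, of which AT2 cells held 0 and the unassigned cells 263, or 79.2%. A further 44 were in 8 of the 1330 other cells that passed no gate. The level in unassigned cells was 1131 (998 to 1276) CPM, and 8 of the 39 cells held all of it, with 124 UMIs in 1 cell. Sprr1a was thus the gene with the highest share of its UMIs in the unassigned cells, and the gene found in the fewest of them.

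**Figure D2:**
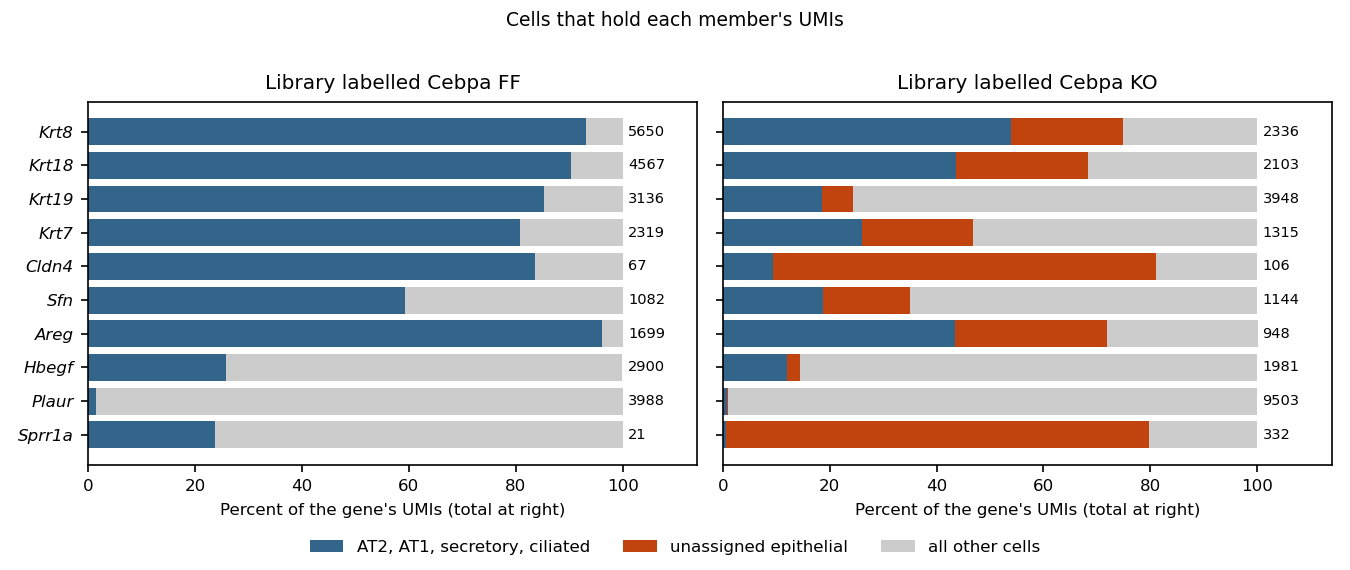
Percent of each gene's UMIs (horizontal axis) that lay in the 4 gated epithelial classes, in unassigned epithelial cells and in all other cells, by library, with the total UMIs of the gene at the right. Unassigned cells hold 79.2% of Sprr1a and 71.7% of Cldn4 UMIs in the library labelled Cebpa KO and at most 0.0354% of any gene in that labelled Cebpa FF.

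The 39 unassigned cells were 0.295% of the cells of the library labelled Cebpa KO, yet held a larger part of the UMIs of every member but Plaur. They held 20.8% of Krt8, 24.7% of Krt18, 20.9% of Krt7, 28.5% of Areg, 16.3% of Sfn, 5.83% of Krt19 and 2.32% of Hbegf UMIs. For Plaur the share was 0.189%. Other cells held 75.6% of the 3948 Krt19 UMIs in that library, and macrophages alone held 2027 of them. In Cebpa FF the 4 gated classes held 93.1% of Krt8, 90.3% of Krt18, 85.2% of Krt19 and 80.8% of Krt7 UMIs. Such shares follow the size of the classes as well as the level of a gene. AT2 cells held 9498123 of the 68802017 UMIs kept in Cebpa FF and 1627737 of the 64452208 in Cebpa KO. Ciliated cells held 3388348 and 923475, AT1 cells 529286 and 96837, and secretory cells, in the other direction, 261863 and 563032.

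Between the libraries, few members differed by 2-fold or more within a gated class. A gene was counted where the ratio was at least 2-fold and its interval left out equality. In AT2 cells 1 of the 10 members, Plaur, was higher in Cebpa KO and 0 were lower, while among the 9976 genes with at least 50 UMIs 4.67% were higher and 0.581% lower. The median log2 ratio of the members was −0.04, beside 0.13 over all genes tested. In AT1 cells 1 member, Areg, was higher and 0 were lower, beside 5.59% higher and 6.05% lower of 2166 genes, and that member had only 2 and 6 UMIs and so was below the 50 UMIs asked of those genes. In secretory cells 0 members were past 2-fold in either direction, beside 13.2% higher and 6.66% lower of 1096 genes, with a log2 ratio of −0.10 for Krt8, −0.44 (−0.84 to −0.03) for Krt18 and −1.10 (−3.01 to 0.80) for Cldn4. In ciliated cells Hbegf and Plaur were higher and Cldn4 was lower, beside 1.98% higher and 0.787% lower of 8767 genes, and of these 3 members only Hbegf had 50 UMIs over the 2 libraries. The Cldn4 ratio there, −2.33 (−5.43 to −0.38), was not counted with gates at 2-fold the minimum, at −2.48 (−7.84 to 0.13), or as a mean over cells, at −1.42 (−4.52 to 0.54), and had no value after thinning. These counts stand on a few members and were read as values of each gene.

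The keratins of AT2 cells were not past 2-fold. Their log2 ratios were 0.18 for Krt8, −0.06 (−0.23 to 0.10) for Krt18, −0.04 (−0.46 to 0.35) for Krt19 and −0.33 (−0.72 to 0.03) for Krt7. Sfn was at 0.13 (−0.32 to 0.55), Areg at −0.21 (−0.47 to 0.05) and Cldn4, from 12 and 2 UMIs, at −0.04 (−3.24 to 2.13). Every one of these intervals but that of Cldn4 lay within a 2-fold change with all cells summed. Thinned before summing, Sfn was at 1.22 (0.04 to 2.41), and as a mean over cells Areg was at −1.26, both past 2-fold, with 29.3% of its UMIs in Cebpa KO in 1 cell. Hbegf was at 0.44 (0.12 to 0.76) in AT2 cells. With TMM factors in place of library totals, all AT2 ratios moved by −0.19, and Hbegf was then at 0.25 (−0.07 to 0.56).

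Plaur in AT2 cells had a log2 ratio of 2.78 (2.08 to 3.48). In cells with at least 3000 UMIs it was 1.74 (0.78 to 2.64). With free RNA subtracted, estimated as the summed profile of the library scaled to the markers of other cell types, it was at least 3.08, counted against a floor of 3 UMIs since the control fell to 0. Ciliated cells showed 3.54 CPM of Plaur in Cebpa FF and 33.6 (22.8 to 47.6) in Cebpa KO, a log2 ratio of 3.24 (2.24 to 4.34). In AT1 cells Plaur was at 22.7 CPM (12 UMIs) in Cebpa FF and 41.3 (4 UMIs) in Cebpa KO, and secretory cells held 3 UMIs and 1. Endothelial cells were at 92.0 and 137. Neutrophil markers, summed, were at 14.6 and 585 CPM in AT2 cells, 5.02 and 233 in ciliated cells, 3.78 and 361 in AT1 cells, and 12.8 and 431 in endothelial cells, which are no neutrophils. The part of RNA from other cell types in the Plaur ratio beyond the subtraction given was not tested.

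Hbegf in ciliated cells was at 36.9 (30.7 to 44.0) CPM in Cebpa FF and 122 (101 to 147) in Cebpa KO, a log2 ratio of 1.73 (1.35 to 2.11). Of the 113 UMIs in Cebpa KO, 51.3% came from 1 cell. Without the cell that held most member UMIs in each library the ratio was 0.89 (0.40 to 1.37) and no longer past 2-fold. In AT1 cells Hbegf was at −0.70 (−1.44 to −0.02), and the keratins were at −0.28 (−0.62 to 0.05) for Krt19, −0.17 (−0.45 to 0.10) for Krt7 and −0.15 (−0.69 to 0.35) for Krt18. In ciliated cells Krt7 was at −0.64 (−0.97 to −0.32), Krt18 at −0.23 (−0.39 to −0.08) and Krt19 at −0.13 (−0.29 to 0.03). No keratin was past 2-fold in any gated class.

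**Figure D3:**
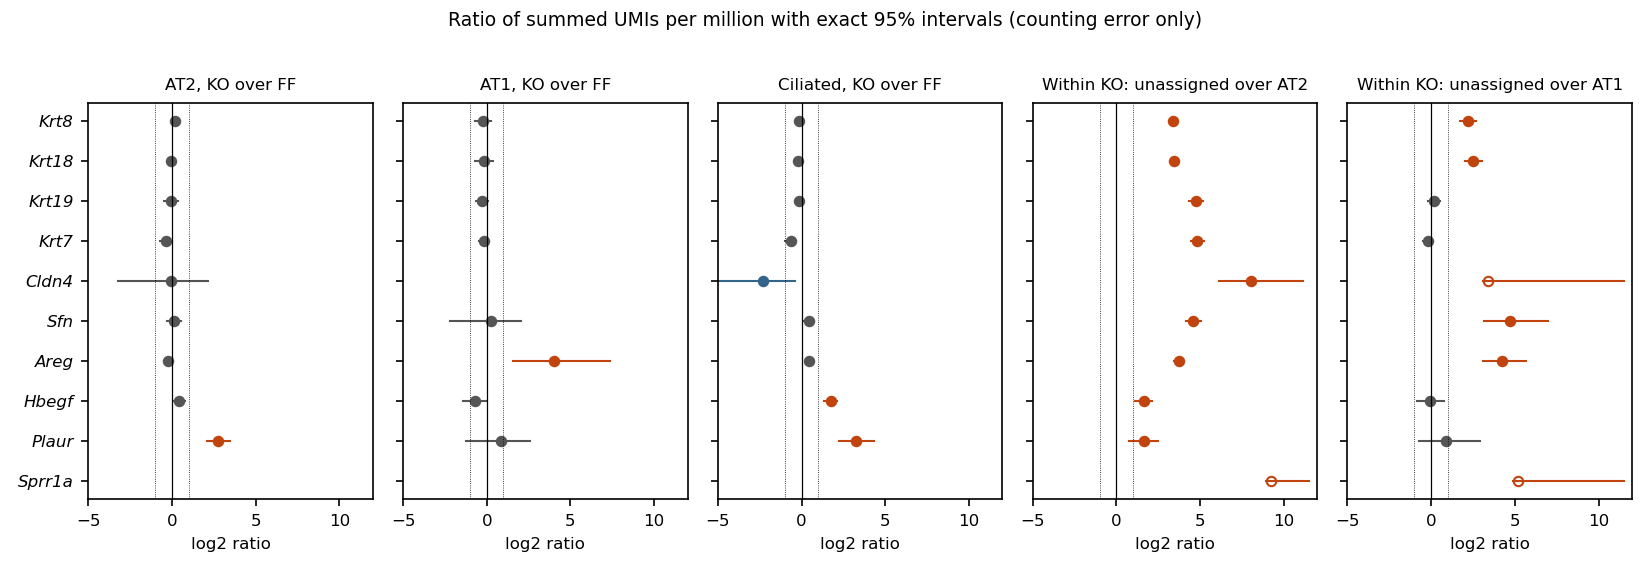
Log2 ratio (horizontal axis) of each gene with exact 95% intervals for AT2, AT1 and ciliated cells, Cebpa KO over Cebpa FF, and for unassigned epithelial cells over AT2 and over AT1 cells within the library labelled Cebpa KO. Dotted lines stand at 2-fold, open circles are bounds against 3 UMIs, and orange and blue mark genes past 2-fold higher and lower. Between the libraries only Plaur passes in AT2 cells, at 2.78, while all 10 genes pass in unassigned over AT2 cells.

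Within the library labelled Cebpa KO, all 10 members were higher in the unassigned cells than in AT2 cells, beside 18.3% of 4945 genes that were higher and 6.13% that were lower. The median log2 ratio of the members was 4.18 and that of all genes 0.44. The unassigned cells were chosen for general epithelial genes and the AT2 cells were not. Cldn3 was found in 36 of 39 unassigned and 132 of 293 AT2 cells, and Cldn7 in 33 and 76. The part of this choice in the ratios was not tested. Krt8 was at 3.36 (3.15 to 3.56), Krt18 at 3.43 (3.23 to 3.63), Krt19 at 4.75 (4.33 to 5.18) and Krt7 at 4.82 (4.44 to 5.23). Cldn4, against 2 UMIs in AT2 cells, was at 8.05 (6.15 to 11.13), and Sprr1a, against 0 UMIs, was at least at 9.26 with the floor of 3 UMIs. Sfn was at 4.60 (4.16 to 5.06) and Areg at 3.75 (3.45 to 4.06). The smallest ratios were those of Hbegf, at 1.63 (1.10 to 2.14), and Plaur, at 1.65 (0.77 to 2.49). TMM factors moved all of these ratios by −0.63.

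Against AT1 cells of the same library, 6 members were higher and 0 lower, beside 12.1% higher and 11.2% lower of 1103 genes. AT1 cells were not chosen for general epithelial genes either, with Cldn3 found in 3 and Cldn7 in 8 of 38 cells. Krt8 was at 2.20 (1.75 to 2.68), Krt18 at 2.51 (2.03 to 3.03), Areg at 4.23 (3.09 to 5.69) and Sfn, against 3 UMIs, at 4.70 (3.13 to 6.99). Cldn4 was at least at 3.40 and Sprr1a at least at 5.19, since AT1 cells held 0 UMIs of either. Krt19 at 0.17 (−0.19 to 0.55), Krt7 at −0.18 (−0.49 to 0.13) and Hbegf at −0.06 (−0.85 to 0.77) were within 2-fold of the AT1 level by their intervals. Plaur was at 0.91 (−0.70 to 2.93).

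A few cells carried much of this. The 5 unassigned cells with the most member UMIs, of 3445 to 29334 UMIs each, held 1715 of the 2370 member UMIs of the class (72.4%). The cell with the most, of 29334 UMIs, held 782 member UMIs, among them 176 of Krt18, 150 of Krt8, 145 of Areg, 122 of Krt7, 107 of Krt19, 55 of Sfn and 24 of Cldn4, and it held 0 of Sprr1a. The next, of 14735 UMIs, held 124 of Sprr1a and 67 of Sfn but 1 of Krt7 and 0 of Cldn4. A cell of 17648 UMIs held UMIs of all 10 members, with 33 of Cldn4 and 1 of Sprr1a. All 5 cells held Krt8, from 21 to 150 UMIs, and Krt18, from 24 to 176, while Sprr1a ran from 0 to 124, Areg from 1 to 145, Krt7 from 1 to 122 and Cldn4 from 0 to 33. Their AT2 markers were at 0.550 to 4.68 and their AT1 markers at 1.22 to 2.76 UMIs per 1000.

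With the 5 cells of most member UMIs left out of each class, 9 members were still higher than in AT2 cells, Hbegf alone being lost at 0.61 (−0.28 to 1.41), and Cldn4 was at 6.15, Krt19 at 3.43, Krt7 at 3.41, Areg at 2.63 and Sfn at 1.87. Against AT1 cells, 5 members were then higher and 3 lower, the latter being Krt19 at −1.20 (−1.80 to −0.60), Krt7 at −1.19 (−1.71 to −0.67) and Hbegf at −1.16 (−2.31 to 0.00). Sfn, at 1.83 (−0.25 to 4.98), was no longer counted. The likeness of the unassigned cells to AT1 cells in Krt19, Krt7 and Hbegf thus rested on a few cells. It was also lost with gates at 2-fold the minimum, where Krt19 was at −1.07 and Krt7 at −1.76.

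Across the 39 cells, Krt8 was found in 32, with a median of 0.949 and a highest value of 7.96 UMIs per 1000. Krt18 was found in 27 (median 0.797), Krt19 in 26 (median 0.343) and Krt7 in 21 (median 0.0907). Areg was found in 17 cells, Hbegf in 13, Plaur in 12, Cldn4 and Sfn in 11 each and Sprr1a in 8. Each keratin was found in more than 20 of the cells and each other member in fewer. The share of a gene's UMIs in its top 5 cells was 61.9% for Krt8, 65.0% for Krt18, 78.7% for Krt19 and 82.5% for Krt7, beside 61.1% for Plaur, 73.9% for Hbegf, 84.8% for Areg, 89.5% for Cldn4, 94.1% for Sfn and 97.0% for Sprr1a. Krt19 and Krt7 were thus no more evenly spread in UMIs than Hbegf and Plaur. No member was found in 6 of the cells, and 5 or more members were found in 18.

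Krt8 and Krt18 together were at a median of 1.70 UMIs per 1000 in the unassigned cells, with a highest value of 15.2. The share at 2 or more per 1000 was 19 of 39 (48.7%, 32.4 to 65.2). It was 0.215% of AT2 cells in Cebpa FF and 2.39% (7 of 293) in Cebpa KO, 14.7% and 7.89% of AT1 cells, and 17.6% and 10.3% of ciliated cells. Among cells with at least 3000 UMIs the share was 9 of 19 (47.4%, 24.4 to 71.1) in the unassigned class and 2 of 77 (2.60%, 0.316 to 9.07) in AT2 cells of that library. Depth above that minimum was not matched, and its part in the difference was not tested.

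**Figure D4:**
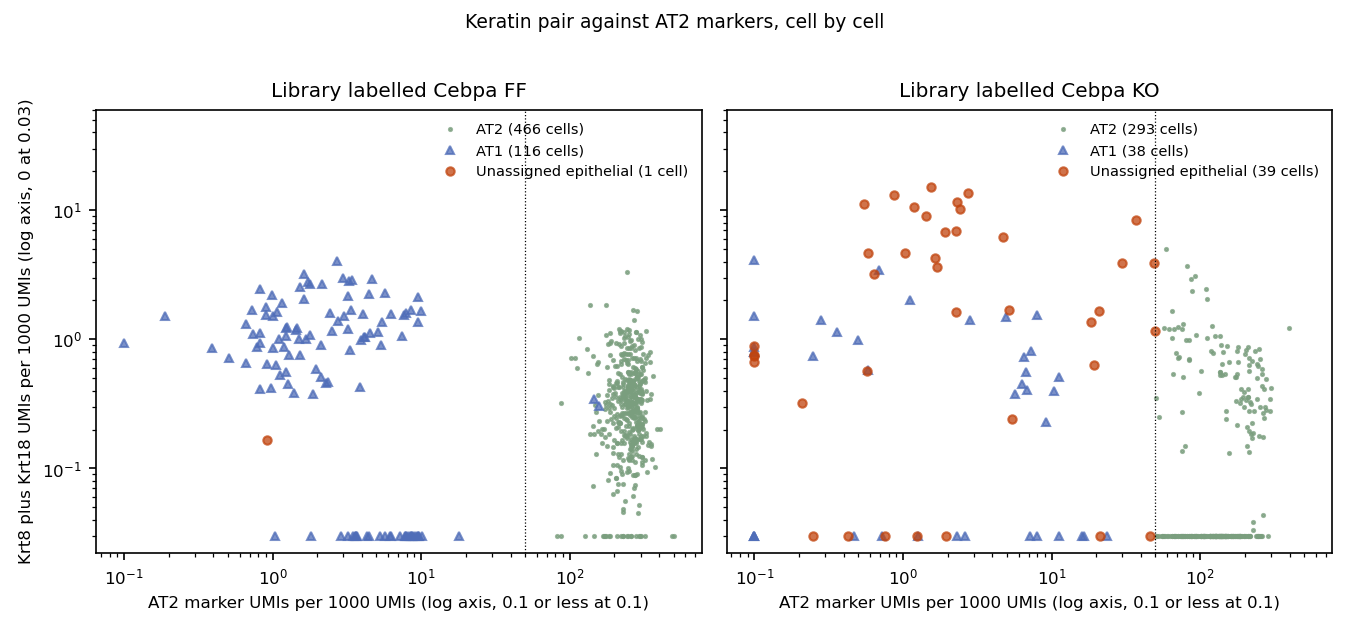
Krt8 plus Krt18 UMIs per 1000 (vertical log axis) against AT2 marker UMIs per 1000 (horizontal log axis) for each AT2, AT1 and unassigned epithelial cell, by library. The dotted line is the AT2 gate at 50, and values of 0 are drawn at the lower edge of the axes. In the library labelled Cebpa KO, 19 of 39 unassigned cells are at 2 or more on the vertical axis, against 7 of 293 AT2 cells.

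Joint detection was read in cells thinned to 1000 UMIs. At least 3 of the 10 members were found in 20 of 38 unassigned cells (52.6%, 35.8 to 69.0), in 1.30% of AT2 cells of Cebpa KO and 3.01% of those of Cebpa FF. AT1 cells reached 36.1% and 48.7%, and ciliated cells 11.6% and 14.8%. At least 5 members were found in 12 of 38 unassigned cells (31.6%, 17.5 to 48.7). Of AT2 cells of Cebpa KO 0 of 231 did so, which allows a share of up to 1.58% by its interval, and of AT2 cells of Cebpa FF 1 of 465 did. AT1 cells with 5 or more members were 5 of 76 in Cebpa FF (6.58%) and 0 of 36 in Cebpa KO. The highest number of members in a thinned cell was 8 in the unassigned class, 5 in AT2 cells of Cebpa FF and 3 in those of Cebpa KO.

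**Figure D5:**
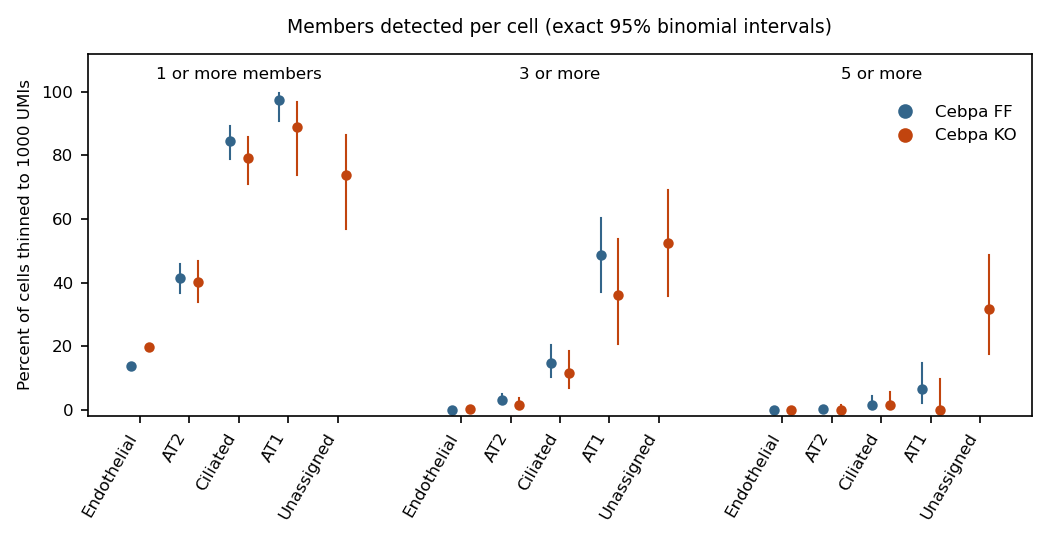
Percent of cells thinned to 1000 UMIs (vertical axis) that held 1 or more, 3 or more and 5 or more of the 10 genes, by class and library, with exact 95% binomial intervals. At 5 or more members the unassigned epithelial cells are at 31.6% and AT2 cells of the same library at 0.

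Krt8 and Krt18 were found together in 20 of 38 thinned unassigned cells, and Krt18 was found in 80.0% of the cells with Krt8 and in 0% of those without it. All cells with Krt7, Cldn4, Sfn, Hbegf or Sprr1a in that class also held Krt8. Areg was found in 44.0% of the cells with Krt8 and 7.69% of those without. Sprr1a was in 5 of the 9 cells with Sfn and in 3 of the 5 with Cldn4. Such overlaps describe these cells, which were of equal depth after thinning, and are no measure of shared control.

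In AT2 cells of Cebpa FF, Krt18 was found in 26.8% of the cells with Krt8 and 17.5% of those without, and in those of Cebpa KO in 18.2% and 12.9%. Hbegf was in 7 of the 34 AT2 cells of Cebpa FF with Areg (20.6%) and in 4.18% of those without. In AT1 cells of Cebpa FF, Krt7 was found in 80.5% of cells with Krt19 and 77.1% of those without, so that each was frequent without regard to the other. In ciliated cells of Cebpa FF, Krt18 was in 36.3% of the cells with Krt8 and 37.8% of those without. The difference in these overlaps between classes was not tested.

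The unassigned cells were 7.28% (5.22 to 9.81) of the 536 epithelial cells of these 5 classes in Cebpa KO and 0.125% (0.00316 to 0.693) of the 802 in Cebpa FF. Among cells with at least 3000 UMIs the shares were 19 of 153 (12.4%, 7.64 to 18.7) and 1 of 707 (0.141%). With gates at 2-fold the minimum, which moves weakly marked cells out of every class, the unassigned class grew to 102 cells in Cebpa KO and 44 in Cebpa FF. The other cells that passed no gate, the unassigned ones left out, were also more frequent in Cebpa KO, at 1330 (10.0%) against 792 (6.89%). Gates ask for at least 3 distinct markers, and 53.1% of cells in Cebpa KO against 28.5% in Cebpa FF were below 3000 UMIs. The part of depth in these shares was not tested. Whether mice differed in the share of unassigned cells or of the other cells without a gate cannot be read from pooled libraries.

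The levels were also read by AT2 marker content. As the AT2 gate is at 50 marker UMIs per 1000, the bins under 50 hold the unassigned cells and those from 50 the AT2 cells, so only the bins on 1 side of the gate add to the comparison above. In Cebpa KO, Krt8 was at 2729 CPM in the 28 cells with under 5 AT2 marker UMIs per 1000, at 336 (268 to 416) in the 78 cells from 50 to 100 and at 179 (158 to 203) in the 215 cells of 100 or more. Krt18 was at 3042, 376 and 176 in the same bins, and Areg at 1715, 188 and 67.5. The bins from 5 to 20 and from 20 to 50 held 4 and 7 cells, too few to place, with Krt8 at 616 and 957. All 263 Sprr1a UMIs and all 187 Sfn UMIs of the unassigned cells were in the bin under 5. Cebpa itself was at 56.1 in the bin from 50 to 100 and at 136 in that of 100 or more. In Cebpa FF 463 of the 466 AT2 cells were in the bin of 100 or more, with Krt8 at 180, which was the level of that bin in Cebpa KO. The marker share and the level of each gene have the same total as their denominator, and the bins were set on values of the same cells.

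Cebpa was at 8.60 CPM (1.04 to 31.1, 2 UMIs) in the unassigned cells, against 123 in AT2 cells of the library labelled Cebpa KO, a log2 ratio of −3.84 (−6.90 to −1.97). Cebpa was also low in AT1 cells, at 9.45 CPM (3.07 to 22.0) in Cebpa FF and 20.7 (2.50 to 74.6, 2 UMIs) in Cebpa KO. A low level was thus not particular to the unassigned cells. After thinning, 0 of 38 unassigned cells held it, against 10.8% of AT2 cells. Surfactant genes were low in the unassigned cells too, with Sftpc at 1208 against 134930 CPM in AT2 cells of that library. Ager was at 1002, between the 636 of AT2 cells and the 9501 of AT1 cells. Hopx, another AT1 gene, was at 138 in the unassigned cells and 4286 in AT1 cells. Sftpc is a marker of the AT2 gate, and Ager and Hopx are markers of the AT1 gate. As cells that passed a gate were kept out of the class, these values were limited by that choice and are no separate result. The neutrophil and endothelial markers below belong to gates as well. Nkx2-1, the lung epithelial factor, was at 215, Ptprc of leukocytes at 98.9, and neutrophil and endothelial markers, summed, at 920 and 2601 CPM. Those last sums were 585 and 1585 in AT2 cells of that library, and their part in the levels of the members was not tested.

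Macrophages held Krt19 in the library labelled Cebpa KO. The 746 gated macrophages had 2027 UMIs of it, or 380 (364 to 397) CPM. Of these, 552 cells with at least 2 of Siglecf, Marco, Ear1 and Chil3, genes of alveolar macrophages, held 1978 UMIs, at 418 (400 to 437) CPM, and 63.8% of them held a UMI. The 113 macrophages with C1q genes held 12 UMIs, at 28.0 (14.5 to 48.9). Cebpa FF had only 25 gated macrophages, too few to compare, of which 3 had those alveolar genes and held 3 UMIs of Krt19, at 1435 (296 to 4195), and 22 had C1q genes and held 0. In Cebpa KO, of 690 thinned macrophages, 25.4% held Krt19, 2.61% Krt8, 1.01% Krt18 and 0.580% Krt7. Only 1 of them held Krt19 and Krt7 together, against 13 of 36 thinned AT1 cells of that library.

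The genes whose pattern over the 30 sums of class and library was most like a member are given as a description, since the points share libraries and depth. These sums were of gated classes with at least 20 cells. The unassigned cells and the other cells that passed no gate were not among them. The r values therefore leave out the cells with most Cldn4 and Sprr1a UMIs of Cebpa KO. Krt8 went with Krt18 (Pearson r 0.98), Prr15l (0.96) and Wwc1 (0.96) on the log2 scale with a pseudocount of 10. Krt18 went with Krt8, Prr15l (0.97) and Wwc1 (0.96). Krt7 went with Cgn (0.96), Cxadr (0.95) and Pkp2 (0.95), and Krt19 with Krt7 (0.88), Cgn (0.87) and Clba1 (0.86). Cldn4 had 73 UMIs over these sums, and its closest genes were 1700028P14Rik (0.83), Ccser1 (0.82) and Ccdc113 (0.82). Among the members, Krt8 was at 0.88 with Krt7, 0.85 with Krt19, 0.76 with Areg, 0.27 with Sprr1a and −0.36 with Plaur.

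Other genes of the transitional and injury state were followed in a list of 23. In AT2 cells 21 had at least 50 UMIs, of which 2 were higher in Cebpa KO and 0 lower, beside 4.67% and 0.581% of all genes, with a median log2 ratio of 0.27 beside 0.13 over all genes. Those 2 were Fn1, fibronectin, which went from 5.16 to 40.5 CPM (2.97), and Sox9, a factor of distal progenitors, from 0.421 to 30.1 (6.16). Of the 49 Sox9 UMIs in Cebpa KO, 67.3% came from 1 cell, and of the 66 Fn1 UMIs 30.3% did. Markers of other cell types were higher in the same AT2 cells, endothelial ones at 738 and 1585 CPM and neutrophil ones at 14.6 and 585, and their part in Fn1, in Lrp1 and Tgm2 below and in the other list genes was not tested.

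In AT1 cells 12 of the list were measured, 0 were higher and 3 lower, beside 5.59% and 6.05% of all genes. Among them were Ccn2, a target of YAP, from 321 to 82.6 CPM (−1.96), and Itgb6, the integrin that frees TGF-beta, from 414 to 176 (−1.24). Within Cebpa KO, 12 of 16 measured genes of the list were higher in unassigned than in AT2 cells and 0 lower, beside 18.3% and 6.13% of all genes, with a median of 2.19 beside 0.44. The largest were Anxa1 from 71.3 to 1844 (4.69), F3, tissue factor, from 12.9 to 267 (4.37), S100a6 from 197 to 3783 (4.26) and Clu from 235 to 2928 (3.64). Cdkn1a, the p53 target that encodes p21, went from 151 to 1096 (2.86), and 1 cell held 42.7% of its UMIs. For the other named genes the top unassigned cell held 28.7% of Anxa1, 41.9% of F3, 37.5% of S100a6 and 45.8% of Clu UMIs. Over AT1 cells of Cebpa KO, 5 of 12 measured genes of the list were higher in unassigned cells and 1 was lower. All genes gave 12.1% and 11.2%, and the median was 0.67 beside 0.09. S100a6 had 549 of the 96837 UMIs of those AT1 cells and 880 of the 232591 of unassigned cells, so a high level was not particular to the latter.

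Genes of primed AT2 cells, an inflammatory state that has been described between AT2 cells and the transitional one, were read in the same comparison. Of 7 measured, 1 was higher and 3 were lower in unassigned cells, beside 18.3% and 6.13% of all genes. Lcn2 was at 663 in AT2 cells and 8.60 in unassigned cells (−6.27, from 2 UMIs), Il33 at 192 and 4.30 (−5.48, from 1 UMI), and Lrg1 at 321 and 77.4 (−2.05). Cxcl17 was the higher one, at 29.5 and 159, with 48.6% of its 37 UMIs in unassigned cells in 1 cell. In AT1 cells of the same library Lcn2 had 1 UMI and Lrg1 had 6, so low values of these were not particular to the unassigned cells. Lcn2 was found in 387 and Il33 in 373 of the 466 AT2 cells of Cebpa FF, so neither marked only a small part of AT2 cells. Cells that passed the AT2 gate were kept out of the unassigned class, and the part of that choice in these values was not tested. Of the 1079 Lcn2 UMIs in AT2 cells of Cebpa KO, 25.7% came from 1 cell. Over AT1 cells only 1 gene of the list was measured, and it was not past 2-fold. Between the libraries, 1 of 7 was higher in AT2 cells, beside 4.67% of all genes. That gene was Lrg1, from 113 to 321 (1.51), with 34.1% of its 522 UMIs in 1 cell.

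The EGF receptor, of which AREG and HBEGF are ligands, and other genes of its family were read in AT2 cells. Egfr went from 8.42 CPM (80 UMIs) to 3.07 (5 UMIs), a log2 ratio of −1.46. It was the 1 gene past 2-fold of 7 measured in the EGF family, beside 4.67% higher and 0.581% lower of all genes. Erbb2 was at 0.29 and Erbb3 at −0.17, and Erbb4 had 1 and 0 UMIs. In unassigned cells Erbb3 was at 107 against 44.8 in AT2 cells (1.26), while Errfi1, a feedback inhibitor of the receptor, was at 138 against 283 (−1.04). Erbb2 had 3 UMIs in the unassigned cells, and no UMI of Egfr or Erbb4 was found there. As Egfr had only 5 UMIs in AT2 cells of that library, no difference was read for it. Plau, the ligand of PLAUR, had 3 UMIs in AT2 cells of each library. Of 5 genes of the plasminogen system measured in AT2 cells 1 was higher, Lrp1, from 10.0 to 31.3 (1.65), beside 4.67% of all genes.

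Among the other claudins, Cldn18, the claudin of the alveolus, had a log2 ratio of −0.33 in AT2 cells (873 to 697 CPM), Cldn3 of −0.25 and Cldn7 of −0.26. Cldn5, a claudin of endothelium, was the 1 of 5 past 2-fold there, from 106 to 315 (1.57), beside 4.67% higher and 0.581% lower of all genes. The endothelial markers as a whole went from 738 to 1585 in the same cells. In ciliated cells Cldn18 went from 349 to 149 (−1.23). Of 14 other keratins only 3 had 50 UMIs in AT2 cells, and Krt80 was higher, from 17.2 to 37.5 (1.13), beside 4.67% of all genes. In unassigned cells Krt80 was at 77.4, and Krt23 was at 0 against 60.8 in AT2 cells. Krt80 had 19 of the 96837 UMIs in AT1 cells of Cebpa KO and 18 of the 232591 in unassigned cells.

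The relatives of SFN and SPRR1A were followed in the same way. None of the 6 other 14-3-3 genes was past 2-fold in AT2 cells. In unassigned cells 2 of 6 were higher than in AT2 cells, beside 18.3% of all genes, among them Ywhah from 81.7 to 292 (1.84). Of 13 genes of the cornified envelope 3 had 50 UMIs in AT2 cells, and Tgm2, a transglutaminase, was higher, from 15.2 to 41.2 (1.44), beside 4.67% of all genes. In unassigned cells the 2 with 50 UMIs, Tgm2 and Ppl, had log2 ratios of −0.09 (−1.28 to 0.92) and 0.24 (−0.63 to 1.01) over AT2 cells, and Evpl, with 6 UMIs in each class, was at 2.81 (0.90 to 4.71). Of the desmosome and keratin linker genes 0 of 7 were past 2-fold in AT2 cells, and in unassigned cells Dsp, desmoplakin, was at 133 against 50.4 and Plec, plectin, at 224 against 97.7. Over AT1 cells of Cebpa KO, 0 of 5 measured 14-3-3 genes and 0 of 2 measured linker genes were past 2-fold in unassigned cells. Of all genes 12.1% were higher and 11.2% lower in that comparison.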

How the data were processed

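The authors deposited 1 matrix of UMI counts per genotype, made with Cell Ranger against mm10. The file header names version 5.0.0 and the labels name 6.1.1. The matrices hold 11721 and 13373 barcodes, as many as the study counts as cells after its filter, and that filter (fewer than 200 genes or over 20% mitochondrial UMIs left out) leaves 11487 and 13238. Reads of more than 1 gene are not counted and the kit keeps the strand, so opposite-strand overlaps do not add counts. The labels name a FACS method for the suspensions and the methods whole-lung suspensions, so a sort before loading is not settled. As 3′ counts do not scale between genes, levels were compared across classes of cells for 1 gene at a time.

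Cells were gated with Python 3.11.15 (numpy 2.4.6, scipy 1.17.1, pandas 2.3.3) by marker UMIs per 1000 with at least 3 distinct markers (AT2 50, AT1 5, secretory 50, ciliated 8). Where several gates were passed, the cell went to the gate it passed by the largest ratio. A second gate was passed by 19 and 52 AT2 cells, 10 and 6 AT1 cells and 2 and 11 ciliated cells. Gate minima and the unassigned class were set after the data were seen, and the 10 members and the gene lists were chosen with earlier results of these data known. Library totals scaled the main ratios, counts of 0 were given a floor of 3 UMIs, and a gene was counted at 2-fold with an interval that left out equality. All 10 members were named; list genes were named when past 2-fold with at least 50 UMIs in AT2 or AT1 cells (at most 4 per list) or when a partner of a member, and list genes named for unassigned cells were chosen after their values were seen. 1 list gene that meets this rule is not reported here. Doublets were kept. Scrublet in scanpy 1.11.5 called 415 cells of Cebpa FF and 0 of Cebpa KO, where the 1402 highest scores served as an alternative. TMM factors came from edgeR 4.0.16 in R 4.3.3, as an alternative scaling alone. Figures were drawn with matplotlib 3.10.9, and the ratio code was tested on simulated data. The number of UMIs behind each value sets its precision.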

Additional observations from a re-analysis of the deposited data

Results flagged for a closer look

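Some members had a signal outside the epithelial classes in the library labelled Cebpa KO that was above that in the control library labelled Cebpa FF. Values are CPM (UMIs per 1000000), Cebpa KO first, and they compare 2 libraries with no replicate. Only members above the control are given, and the share of all genes past 2-fold in these classes was not read. In macrophages Krt19 was at 380 against 29.8 and Plaur at 233 against 29.8, where the control had 25 cells. Of these, 3 had alveolar macrophage genes and held 3 Krt19 UMIs, at 1435 (296 to 4195) CPM, beside the 418 of such macrophages in Cebpa KO, so the macrophage difference in Krt19 gives no direction within that kind of cell. In fibroblasts Krt18 was at 18.8 against 5.36, Krt19 at 18.8 against 5.69, Areg at 8.02 against 1.86 and Plaur at 37.8 against 11.6. Krt18 was found in 35 of 1302 fibroblasts against 36 of 1301, and after thinning in 1.56% against 0.654%. Areg was found in 18 against 11 of them. Their median depth was 1686 against 6650 UMIs, and the part of depth and of RNA from other cells was not tested. Endothelial cells had Krt19 at 14.5 against 4.45, and smooth muscle cells and pericytes had Plaur at 40.0 against 9.78. Cells that passed no gate and were not set apart as unassigned epithelial cells had Krt8 at 40.1 against 11, Krt18 at 45.9 against 9.40, Krt19 at 42.9 against 9.40, Krt7 at 27.1 against 8.22, Sfn at 11.8 against 2.74, Areg at 18.3 against 0.391 and Plaur at 108 against 43.1.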

How the results depend on the processing

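No paired analysis was possible because each genotype had 1 library. No member counted as past 2-fold with the main settings turned its direction under the alternatives run. Areg in ciliated cells, which was not counted, went from 0.47 to −1.05 after thinning and to −1.07 as a mean over cells. Ciliated cells had 2 to 3 members past 2-fold, and 4 with a 1.5-fold threshold, but only Plaur under every alternative run. Cldn4 was lost after thinning, with gates at 2-fold the minimum and as a mean over cells. Hbegf was lost after thinning and without the cell of most member UMIs. The counts were 9 to 10 for unassigned over AT2 cells and 6 to 8 for unassigned over AT1 cells, of which 3 (Krt19, Krt7 and Hbegf) were lower with gates at 2-fold the minimum, where Krt8 was at 0.84. In AT2 cells thinning gave 2 members (Sfn and Plaur higher) and the mean over cells gave 2 (Areg lower, Plaur higher) in place of 1. In AT1 cells the count of 1 became 0 in cells of 3000 UMIs or more, in cells of 500 genes or more whose mitochondrial UMIs were 10% or less, and as a mean over cells, and 2 with gates that left out Sftpc and the secretoglobins or with a 1.5-fold threshold. In secretory cells it went from 0 to 3 without doublets (Krt8, Krt7 and Areg higher), to 2 as a mean over cells (Cldn4 and Sfn lower) and to 2 without the cell of most member UMIs (Krt7 and Sfn lower), so Krt7 was past 2-fold in opposite directions, at 1.68 and −1.07. The 39 unassigned cells were 19 at 3000 UMIs or more, 102 with gates at 2-fold the minimum and 82 with 2 of the 4 general epithelial genes. Over all genes, the 524 past 2-fold in AT2 cells were 1159 with a minimum of 1 UMI and 131 with 200, the 252 in AT1 cells 744 and 57, the 218 in secretory cells 792 and 47, and the 243 in ciliated cells 817 and 35. Of all other values, 626 ratios moved by less than their interval and 174 by more, as did 175 and 105 shares of cells. A limit of 1 UMI per 1000 for markers of any other class emptied the 4 gated classes of Cebpa KO and so left no comparison. The causes were not tested. TMM moved log2 ratios by −0.19 in AT2, −0.25 in AT1 and −0.63 in unassigned over AT2 cells. Cldn4 and Sprr1a rest on 12 UMIs or fewer in AT2 and AT1 cells, which limits their ratios.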

Other observations

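In the library labelled Cebpa KO, Tnfrsf12a, the receptor of the cytokine TWEAK, was at 408 CPM (UMIs per 1000000) in the unassigned epithelial cells and at 15.4 in AT2 cells. In AT1 cells it was at 189 (100 UMIs) in Cebpa FF and 51.6 (5 UMIs) in Cebpa KO. Msln, Foxj1 and Scgb1a1, genes of mesothelial, ciliated and secretory cells, were at 8.60, 43.0 and 348 in the unassigned cells, and Hbb-bs of red blood cells was at 1509. All are markers of gates that the unassigned cells did not pass, so their values were limited by the choice of the class. The 39 barcodes of these cells differed from each other in at least 3 bases.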
